A study of Homo sapiens with 8 samples.

Results

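Polyamines (putrescine, spermidine and spermine) are small, positively charged molecules that bind nucleic acids and are needed for growth. Ornithine decarboxylase (ODC1) makes putrescine, S-adenosylmethionine decarboxylase (AMD1) makes the aminopropyl donor, and spermidine synthase (SRM) and spermine synthase (SMS) build the longer polyamines from them. The pathway is held in check by its own products: high polyamines favour the programmed frameshift that makes antizyme (OAZ1, OAZ2), antizyme binds ODC1 and hands it to the proteasome, and antizyme inhibitor (AZIN1), a relative of ODC1 with no enzyme activity, ties antizyme up. SAT1 acetylates spermidine and spermine, and the oxidases PAOX and SMOX turn the longer polyamines back. Translation of both AMD1 and AZIN1 is known to depend on small reading frames in their 5′ leaders that respond to polyamines.

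These 10 genes, taken by symbol from 19964 genes with a coding transcript, were followed in HEK293T cells, an established human embryonic kidney line. Cells received vehicle (control) or 40 µM sodium arsenite, a thiol-reactive agent that causes oxidative stress and leads to phosphorylation of eIF2 and a general fall in initiation, and were harvested after 30 min. Ribo-seq, which sequences the mRNA fragments covered by ribosomes, and mRNA-seq of randomly fragmented mRNA from the same lysates gave 8 libraries, 2 replicates in each of 4 groups. For each gene the coding transcript richest in control ribo-seq reads over its coding sequence (CDS) was taken, and all 10 genes had one. ODC1, AZIN1 and AMD1 were picked with their ribo-seq response already known, so their occupancy, translational efficiency and leader values are described here without a test. The other 7 genes were taken by function and were read from tests over all genes.

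Reads on the chosen transcripts ranged from 1023989 to 7270582 in the ribo-seq libraries and from 3992449 to 21715178 in the mRNA-seq libraries. Replicate 1 was the shallower in both assays and carried another 3′ adapter than replicate 2, so treatments were compared within replicates. Over all genes, leaders took 0.399% of footprints in control and 0.496% in arsenite for replicate 1, against 0.80% and 1.53% for replicate 2. The kidney and HEK293T markers VIM, NEFL, NEFM and PAX2 were read in all mRNA-seq libraries, PAX2 at no more than 3.88 CPM, while CD3E and HBB were at 0, ALB was at most 0.258 and PTPRC at most 0.776 CPM. Levels are given as CPM, the read count scaled to a common library size with TMM factors, which set the bulk of genes equal between libraries. A change is therefore relative to the bulk and does not include the general fall in translation. Where the 2 control and 2 arsenite libraries are said not to overlap, the share of all genes like this was not counted. With so few libraries this describes the values and is no support for a change.

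AMD1 is the member whose leader element lies close to its annotated start, and its reading frame is shown since the leader reads of AMD1 are described below. Of the 7 members with a window in the RefSeq start site table, AMD1 alone had a complete ATG-to-stop reading frame in the first 50 transcribed bases. It lies on chromosome 6 at chr6:110874796-110874816 (GRCh38.p14, plus strand), begins at base 12 or 13 of the transcript (counted from 1 at the annotated start, which differs between windows), and spans 21 bases with 6 codons before the stop. Capitals mark the start and stop codons.
AMD1 leader reading frame: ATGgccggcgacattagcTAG
Such a frame, searched on the transcribed strand with TAA, TAG or TGA as the stop, was in 3580 of 35116 windows (10.2%). The deposited leader counts give no position within the leader, so reads on these bases were not counted apart.

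Ornithine decarboxylase was the member with the lowest ribosome occupancy in arsenite relative to control, while its mRNA differed little. Ribo-seq over the CDS of ODC1 stood at 302.2 CPM in control and 67.1 in arsenite for replicate 1, against 217.8 and 72.7 for replicate 2. Both arsenite libraries lay below both control libraries, with means of 260.0 ± 59.7 (SD, n = 2) and 69.9 ± 3.92 (SD, n = 2). The fitted change was −1.84 ± 0.20 (SE) on the log2 scale, 3.57-fold lower in arsenite, which placed ODC1 10th from the lowest of 10291 genes. ODC1 mRNA-seq levels were 712.8 and 677.1 CPM in replicate 1 and 425.9 and 390.8 in replicate 2, control before arsenite. The replicates differed more than the treatments, and the mRNA change of −0.10 ± 0.05 (SE) had an adjusted p of 0.239 by edgeR's quasi-likelihood test. Translational efficiency, CDS ribo-seq over mRNA-seq, was accordingly −1.72 ± 0.20 (SE) on the log2 scale, with −2.09 in replicate 1 and −1.46 in replicate 2.

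**Figure D1:**
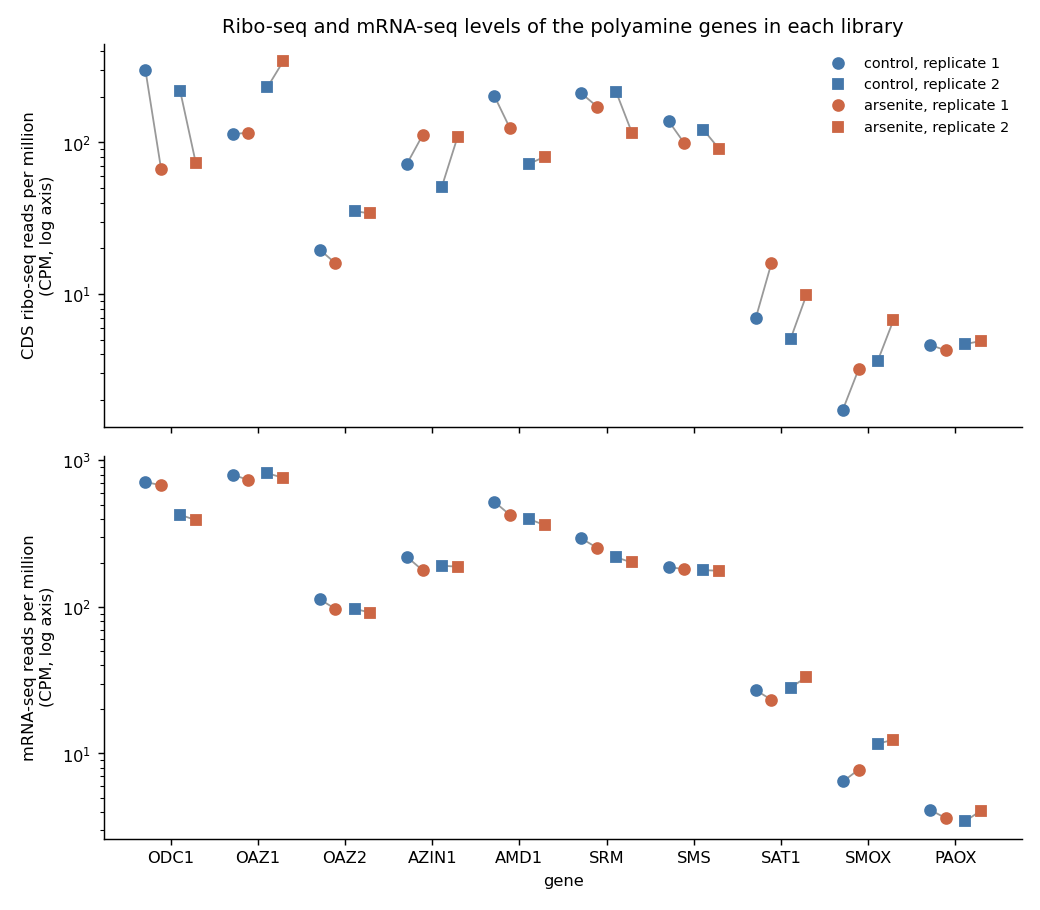
CPM with TMM factors (log axes) of the 10 genes in each library, CDS ribo-seq above and mRNA-seq below, with grey lines joining control and arsenite of a replicate. ODC1 sits lower and AZIN1 and SAT1 higher in arsenite in both ribo-seq replicates, while their mRNA levels stay close. SRM, SMS and OAZ2 are also lower and OAZ1 and SMOX higher in both. SAT1 and SMOX have few ribo-seq reads, and neither SAT1 nor these other members were called in occupancy.

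Antizyme inhibitor went the other way. AZIN1 CDS occupancy was 72.2 CPM in control and 111.8 in arsenite for replicate 1, against 51.0 and 108.5 for replicate 2. The groups did not overlap, with means of 61.6 ± 15.01 (SD, n = 2) and 110.2 ± 2.35 (SD, n = 2). The fitted occupancy change was +0.89 ± 0.21 (SE) on the log2 scale and ranked 10041st from the lowest of 10291 genes. AZIN1 mRNA was at 219.7 and 177.9 CPM in replicate 1 and at 191.3 and 188.3 in replicate 2, a change of −0.11 ± 0.05 (SE) with adjusted p = 0.211 by edgeR. Relative to the bulk of genes, translational efficiency was 2.1-fold higher in arsenite, +1.07 ± 0.19 (SE) on the log2 scale. It was +0.94 in replicate 1 and +1.11 in replicate 2.

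The contrast between the enzyme and the inhibitor of its degradation can be read without any scaling, since the ratio of reads of 2 genes within a library cancels depth, and its change cancels their lengths. There were 4.18 ODC1 CDS ribo-seq reads per AZIN1 read in control replicate 1 and 4.27 in control replicate 2, against 0.6 and 0.669 in arsenite. The ratio was 6.97 times smaller in arsenite in replicate 1 and 6.38 times smaller in replicate 2. In mRNA-seq the same ratio went from 3.24 to 3.81 in replicate 1 and from 2.23 to 2.08 in replicate 2. Thus both arsenite libraries were far below both controls in the ribosome ratio, while the mRNA ratio was higher in arsenite in replicate 1 and lower in replicate 2. Both genes were picked with these opposite responses known, so the ribosome ratio restates the choice and is no separate support. The ratios of ODC1 to other members below carry the fall of ODC1 in the same way.

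AZIN1 also stood out for where its ribosomes lay. Before treatment, 109 of 234 ribo-seq reads on the transcript were in the leader in replicate 1 (46.6%, 95% Wilson interval 40.3 to 53.0%) and 242 of 640 in replicate 2 (37.8%, 34.1 to 41.6%). Among the 8101 genes with at least 100 control CDS reads, this share ranked 13th and 11th from the highest, against a median of 0% in replicate 1 and 0.269% in replicate 2. Per leader mRNA-seq read, the leader held 1.81 times as many ribo-seq reads as the CDS did per CDS mRNA-seq read in replicate 1, and 1.7 times as many in replicate 2, a comparison in which region lengths cancel. The median of this ratio was 0.451 over 114 genes in replicate 1 and 0.208 over 1312 genes in replicate 2, where at least 10 leader reads of each assay were required.

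In arsenite the AZIN1 leader share was smaller. It was 29 of 134 reads in replicate 1 (21.6%, 15.5 to 29.4%) and 162 of 522 in replicate 2 (31.0%, 27.2 to 35.1%). The intervals of control and arsenite were apart in replicate 1 and met in replicate 2, and they cover counting error only. The leader to CDS read ratio changed by −0.94 ± 0.38 (SE) on the log2 scale in the fit, with −1.64 in replicate 1 and −0.43 in replicate 2, and it ranked 9th from the lowest of 650 genes with enough leader reads. Scaled to the bulk of leaders, it was −1.61. In the test over these genes 3 were called (0.462%). Leader reads themselves, scaled like the CDS, went different ways in the replicates, −1.01 in replicate 1 and +0.66 in replicate 2 on the log2 scale. CDS reads scaled in this way were higher in both, relative to the bulk of genes. Before scaling the CDS counts were 125 and 105 in replicate 1 and 392 and 354 in replicate 2, control before arsenite. The smaller leader share was therefore shared by the replicates, and the direction of the leader level was not. AZIN1 was picked for its high CDS occupancy in arsenite, which enters the share and the leader to CDS ratio. The smaller share and the rank of the ratio are therefore no separate result.

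**Figure D2:**
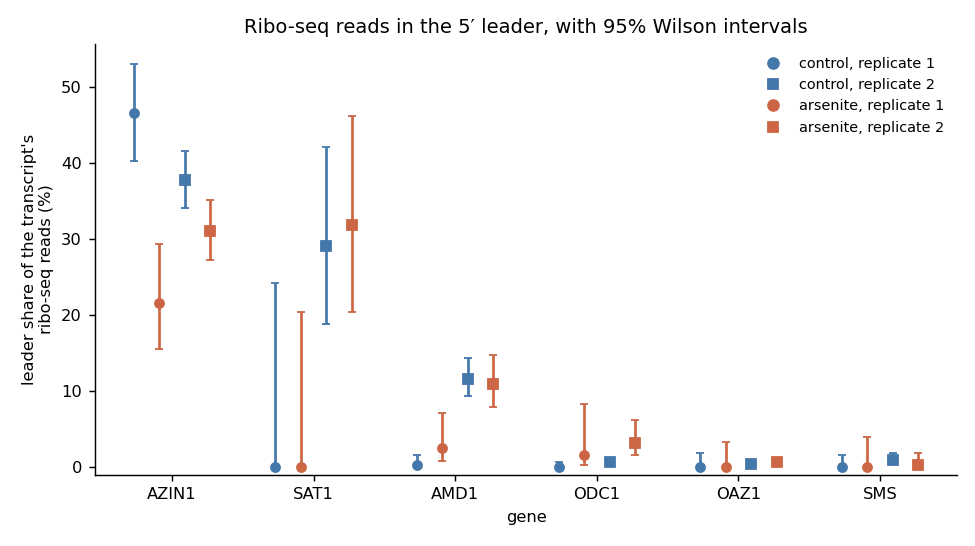
Share of each transcript's ribo-seq reads that lay in the 5′ leader (%, y axis) for 6 genes in the 4 ribo-seq libraries, with 95% Wilson intervals for counting error. AZIN1 has the highest control shares (46.6% and 37.8%) and lower ones in arsenite, while AMD1 reaches 11.6% only in replicate 2.

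AMD1, the other leader-regulated member, gave replicates that differed. CDS occupancy was 204.0 CPM in control and 124.6 in arsenite for replicate 1, against 72.2 and 80.6 for replicate 2. The groups overlapped, the within-replicate changes were −0.71 and +0.16 on the log2 scale, and the fitted change was −0.25 ± 0.21 (SE). Translational efficiency was −0.01 ± 0.24 (SE), from −0.41 in replicate 1 and +0.30 in replicate 2, near the middle of all genes at rank 5164 of 10273. AMD1 thus sat between ODC1 and AZIN1. There were 1.48 ODC1 CDS reads per AMD1 read in control and 0.538 in arsenite for replicate 1, against 3.02 and 0.901 for replicate 2, so that the ratio was 2.75 and 3.35 times smaller in arsenite.

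In mRNA level 7 of the 10 members had a fitted change below 0, and only AMD1 was called. Its mRNA-seq level was 523.7 CPM in control and 425.3 in arsenite for replicate 1, against 398.6 and 361.5 for replicate 2. Within each replicate the arsenite library was lower, but the groups overlapped because the replicates differed. The change was −0.21 ± 0.05 (SE) on the log2 scale with adjusted p = 0.00212 by edgeR's quasi-likelihood test, 0.866 of control. AMD1 was the 1 gene of 10 past the threshold of 0.05, where 5.75% of 12599 genes passed. The call was lost with DESeq2 (−0.21, adjusted p = 0.173) and without the replicate block (−0.23, adjusted p = 1).

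Ribo-seq reads on the AMD1 leader were few in replicate 1. There was 1 of 355 reads in control (0.282%, 0.0497 to 1.58%) and 3 of 120 in arsenite (2.5%, 0.854 to 7.09%). In replicate 2 there were 76 of 656 (11.6%, 9.36 to 14.3%) and 35 of 322 (10.9%, 7.92 to 14.7%), with intervals that overlap. The control share ranked 1658th from the highest of 8101 genes in replicate 1 and 145th in replicate 2. The fitted leader to CDS change of +0.30 ± 0.54 (SE) rests on the 1 and 3 reads of replicate 1, and it was −0.03 in replicate 2 alone. Scaled to the bulk of leaders instead it was −0.49, and with DESeq2 +0.88, so no direction is read from it. A second coding transcript of AMD1 counts more reads as leader and fewer as CDS. It also has fewer reads in total (487 against 656 in control replicate 2), so it lacks some sequence of the chosen transcript. The part that only the chosen transcript counts as CDS held 7.37% of its control CDS ribo-seq reads in replicate 1 and 36.4% in replicate 2. The same part held 33.7% and 39.5% of its control CDS mRNA-seq reads. Replicate 1 was thus poor in AMD1 footprints over the leader and this part of the CDS, in control and in arsenite (14.5%). The counts give no positions, and the role of this gap in the AMD1 values was not tested. Over the CDS of the second transcript, which leaves this part out, the occupancy changes were −0.82 in replicate 1 and +0.11 in replicate 2. These stand beside −0.71 and +0.16 for the chosen transcript, so the replicates differed with either CDS.

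The antizymes are the direct partners of ODC1. The CDS counts give no positions, so reads before and after the programmed frameshift site could not be told apart for OAZ1 or OAZ2. CDS occupancy of either gene is therefore no measure of the antizyme made. OAZ1 CDS occupancy was 113.3 CPM in control and 116.1 in arsenite for replicate 1, against 231.3 and 342.4 for replicate 2. The groups overlapped, with a larger gap between replicates than between treatments, and the change of +0.34 ± 0.19 (SE) had adjusted p = 0.375 by edgeR. OAZ1 mRNA was at 799.1 and 737.0 CPM in replicate 1 and at 817.9 and 761.0 in replicate 2, and its change of −0.11 ± 0.05 (SE) had adjusted p = 0.19. Its translational efficiency change was +0.47 ± 0.19 (SE), with adjusted p = 0.194, and was +0.16 in replicate 1 and +0.67 in replicate 2. Set against its target, there were 2.67 ODC1 CDS reads per OAZ1 read in control and 0.578 in arsenite for replicate 1, against 0.942 and 0.212 for replicate 2. This ratio was thus 4.62 and 4.44 times smaller in arsenite, and the mRNA ratio differed by factors of 0.971 and 1.01. ODC1 was picked for its fall and OAZ1 occupancy was not called, so the ratio is no separate result for OAZ1.

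OAZ1 also had few ribosomes for its mRNA before treatment. Its control ratio of CDS ribo-seq to CDS mRNA-seq was 0.155 of the median gene in replicate 1 and 0.27 in replicate 2, with 0.827% and 2.17% of 8099 genes below it. ODC1 (0.406 and 0.46 of the median gene) and AZIN1 (0.563 and 0.462) were likewise below the median, and SRM (0.765 and 0.846) and SMS (0.761 and 0.689) were nearer to it. The 7 members with at least 100 control CDS reads were all below the median gene in both replicates. OAZ1 had 0 of 196 leader reads in control replicate 1, which allows a share of up to 1.53%, and 7 of 1793 in control replicate 2 (0.39%, 0.189 to 0.804%).

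OAZ2, the second widely expressed antizyme, was read at lower depth. Its CDS had 34 reads in control and 15 in arsenite for replicate 1, against 271 and 111 for replicate 2. These were 19.6 and 16.0 CPM in replicate 1 and 35.2 and 34.0 in replicate 2, so the groups overlapped. The occupancy change was −0.12 ± 0.27 (SE, adjusted p = 0.865) and the translational efficiency change was +0.05 ± 0.19 (SE, adjusted p = 0.946), both by edgeR. Its mRNA change was −0.12 ± 0.06 (SE, adjusted p = 0.268).

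The aminopropyl transferases, which work downstream of ODC1 and AMD1, were lower in occupancy in both replicates, though neither passed the test. SRM CDS occupancy was 210.9 and 172.6 CPM in replicate 1 and 214.8 and 116.2 in replicate 2. The arsenite libraries were both below the controls, and the change was −0.61 ± 0.19 (SE, adjusted p = 0.0893 by edgeR). SRM was past the threshold when low-count genes were not removed (adjusted p = 0.0415) or when a mean of 50 counts was required (adjusted p = 0.0286). It was not past it in edgeR with upper-quartile scaling (adjusted p = 0.0571) or library totals (adjusted p = 0.158). Nor was it with DESeq2 (adjusted p = 0.445) or without the replicate block. SMS was at 138.7 and 99.1 CPM in replicate 1 and at 121.4 and 90.7 in replicate 2, again without overlap. Its change was −0.45 ± 0.19 (SE, adjusted p = 0.226), of the same size in both replicates (−0.48 and −0.42). In translational efficiency SRM was −0.47 ± 0.20 (SE, adjusted p = 0.212), with −0.08 in replicate 1 and −0.77 in replicate 2. SMS was −0.41 ± 0.15 (SE, adjusted p = 0.163), with −0.43 and −0.40. The mRNA of SRM changed by −0.15 ± 0.05 (SE, adjusted p = 0.0596) and that of SMS by −0.03 ± 0.05 (SE, adjusted p = 0.851).

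The enzymes of polyamine turnover had few reads. On the SAT1 CDS lay 12 control and 15 arsenite footprints for replicate 1, against 39 and 32 for replicate 2. Relative to the bulk this was 6.93 and 16.0 CPM in replicate 1 and 5.07 and 9.81 in replicate 2, with no overlap between the groups. The occupancy change was +1.03 ± 0.37 (SE, adjusted p = 0.14 by edgeR), of a size like that of AZIN1 with a larger error. In translational efficiency SAT1 was at +0.88 ± 0.35 (SE, adjusted p = 0.194), and its mRNA was lower in replicate 1 (−0.22) and higher in replicate 2 (+0.24). SAT1 also had leader reads in replicate 2 alone, 16 of 55 in control (29.1%, 18.8 to 42.1%) and 15 of 47 in arsenite (31.9%, 20.4 to 46.2%). In replicate 1 there were 0 of 12 and 0 of 15, which allows shares of up to 25% and 20%. A non-coding SAT1 variant shares reads with this transcript, so that the reads of the variants cannot be told apart.

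SMOX, the spermine oxidase, had 3 CDS ribo-seq reads in each library of replicate 1, and 28 in control and 22 in arsenite in replicate 2. Its occupancy change was +0.88 ± 0.48 (SE, adjusted p = 0.352) and its translational efficiency change +0.77 ± 0.39 (SE, adjusted p = 0.286) by edgeR. PAOX, the oxidase of acetylated polyamines, had 8 and 4 reads in replicate 1 and 36 and 16 in replicate 2. Its changes were +0.02 ± 0.46 (SE, adjusted p = 0.988) in occupancy and −0.13 ± 0.40 (SE, adjusted p = 0.883) in translational efficiency. For neither gene was a change detectable at this depth.

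Over the 7 genes taken by function, 0 passed the edgeR test in occupancy, where 2.77% of 10291 genes were called, and 0 in translational efficiency, where 1.99% of 10273 genes were called. In occupancy, 3 of them had an unadjusted p under 0.05 with edgeR (SRM, SMS and SAT1), as did 17.6% of all genes tested, and 1 did with DESeq2 (5.96% of all genes), which called 0. In translational efficiency, 4 had an unadjusted p under 0.05 with edgeR (OAZ1, SRM, SMS and SAT1), as did 21.1% of all genes, and 0 did with DESeq2 (7.77% of all genes), which also called 0. In mRNA level 6 of the 10 members had an unadjusted p under 0.05 with edgeR, as did 18.4% of all genes, and 1 did with DESeq2 (2.97%). All 10 members passed the filter on low counts. Their median translational efficiency change was 0.0179 on the log2 scale, beside −0.0133 for all genes tested, with 5 members above 0 and 5 below. The interquartile range of all genes was −0.279 to 0.262, and ODC1, SRM and SMS were below that range and OAZ1, AZIN1, SAT1 and SMOX above it. In mRNA level the median was −0.106 for the members and −0.0076 for all genes. The mRNA groups of AZIN1, OAZ1 and OAZ2 did not overlap, arsenite lower, and none of these genes was called in mRNA level. The share of all genes without overlap was not counted, so this is no result about the members.

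**Figure D3:**
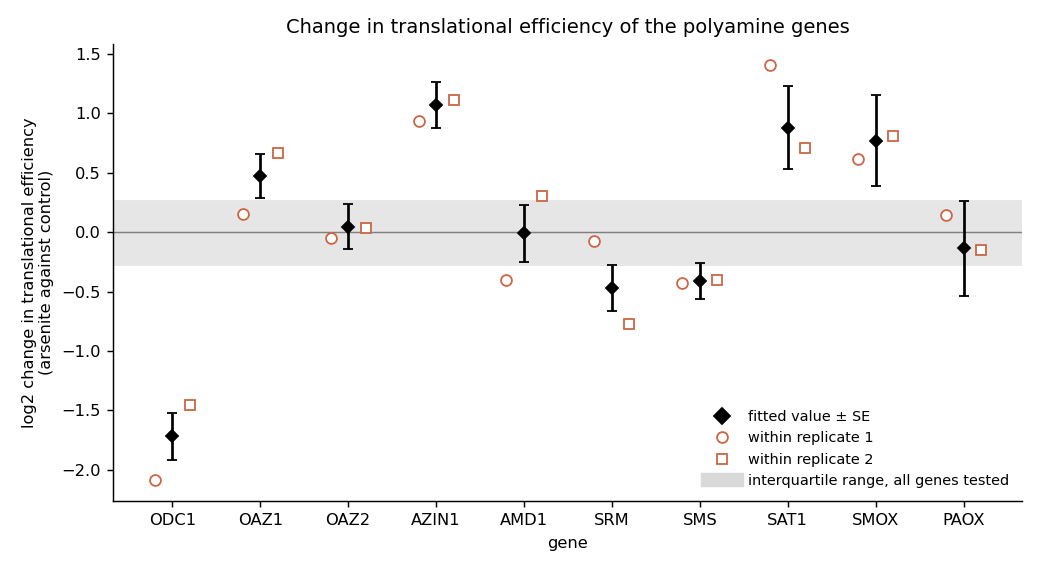
Change in translational efficiency (log2, arsenite against control) of the 10 genes, as the fitted value ± SE and as the value within each replicate, over a band for the interquartile range of all genes tested. ODC1 lies at −1.72 and AZIN1 at +1.07, with AMD1, OAZ2 and PAOX inside the band.

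**Figure D4:**
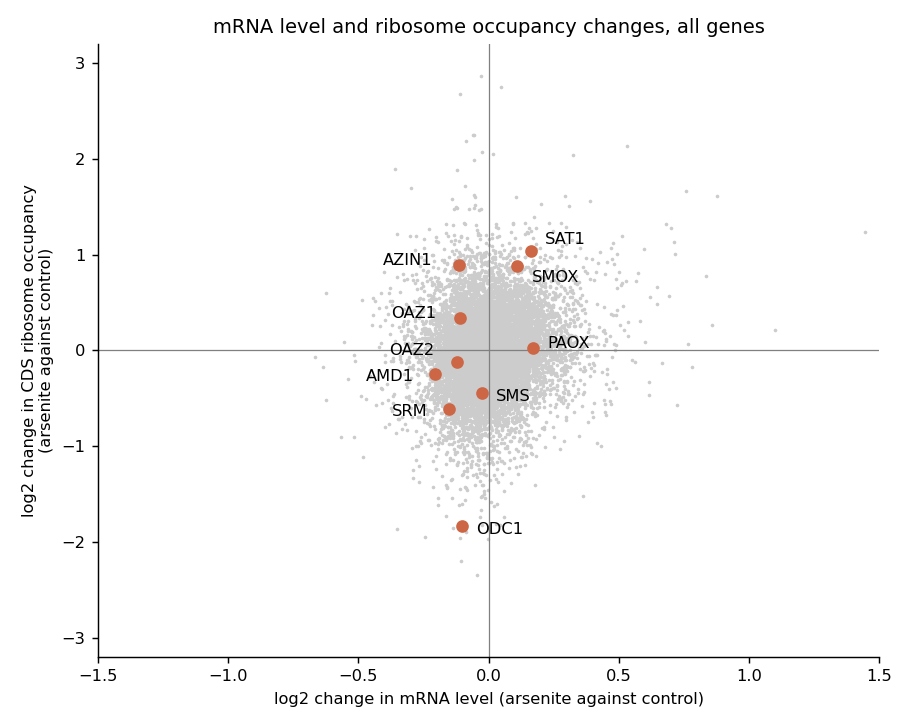
Fitted log2 change in mRNA level (x axis) and in CDS ribosome occupancy (y axis) for 10273 genes in grey and the 10 polyamine genes in colour, with 1 gene beyond the axes. The members spread vertically from ODC1 at −1.84 to SAT1 at +1.03 and lie within 0.21 of 0 in mRNA level.

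The wider polyamine network was examined through 25 further genes. In mRNA level 22 could be tested. Of these 2 rose, where 3.75% of all genes did, and 0 fell, where 2% of all genes did. Both were subunits or carriers of amino acid transport: SLC3A2, the heavy chain of several amino acid transporters also linked to polyamine export, rose by 0.34 ± 0.05 (SE, adjusted p = 3.7e-08), and SLC7A1, a carrier of arginine and ornithine, rose by 0.32 ± 0.05 (SE, adjusted p = 2.44e-07) by edgeR. Their occupancy changes relative to the bulk were −0.02 ± 0.18 (SE, adjusted p = 0.975) for SLC3A2 and −0.07 ± 0.18 (SE, adjusted p = 0.888) for SLC7A1.

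In occupancy and in translational efficiency 21 of the 25 were tested and 0 were called in either direction by edgeR. Over all genes tested, 2.77% were called in occupancy and 1.99% in translational efficiency, so 0 of 21 is near these shares. The median of the 21 genes was −0.252 in occupancy, beside −0.00324 for all genes, and −0.318 in translational efficiency, beside −0.0133. Over the 21 genes occupancy changes ran from −0.664 to 0.644. Among the most abundant genes of the roles, OAT, which links ornithine to glutamate, was at +0.04 ± 0.18 (SE) in occupancy, MAT2A, which makes S-adenosylmethionine, at −0.38 ± 0.18 (SE), EIF5A, the protein that carries the spermidine-derived hypusine, at −0.50 ± 0.22 (SE), and the second acetyltransferase-like gene SAT2 at −0.23 ± 0.32 (SE). The 7 tested genes of the methionine cycle and methylthioadenosine salvage lay between −0.552 and −0.0484. The lowest was ATP13A3 at −0.66 ± 0.23 (SE, adjusted p = 0.128 by edgeR) and the highest ATP13A2 at +0.64 ± 0.24 (SE, adjusted p = 0.16), the latter a lysosomal polyamine exporter, beside −1.84 for ODC1 and +0.89 for AZIN1.

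Genes with the pattern most like each of the 3 contrasted members were found over 4 values, the within-replicate log2 changes of occupancy and of mRNA level, among 5404 genes with a mean of at least 100 CDS reads. Near ODC1 were RPS10, a ribosomal protein (distance 0.446), and CDK2AP1, a cell cycle regulator (0.474). Nearest to AZIN1 were PDCD7 (0.202), RANBP6 (0.215) and CSTF2T (0.265). Nearest to AMD1 were SNX12 (0.0645), CDCA3 (0.0678) and PSMA1 (0.118).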

How the data were processed

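Ribosome footprints and size-matched mRNA fragments were sequenced in 2 biological replicates. The authors trimmed adapters with cutadapt, aligned reads to RefSeq transcripts with Bowtie 1.0.0 on the sense strand, discarded reads of more than 1 gene and deposited raw read counts per transcript, in total and for leader, CDS and 3′ UTR, in which a read on several variants of a gene is counted on each. The members and lists were chosen with earlier results of these data known. All 10 members, of 25 other pathway genes those past a threshold or with the most mRNA-seq reads in their role, and the 3 nearest genes to ODC1, AZIN1 and AMD1 are named, together with ATP13A2 and ATP13A3, which were added after their values were seen. 1 of these nearest genes is not reported here.

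The counts were fitted with edgeR 4.0.16 (TMM, quasi-likelihood test, Benjamini-Hochberg adjustment over all genes, mean of at least 10 counts) in R 4.3.3, blocked on the replicate. Each SE of a fitted change was worked back from the test, as the size of the change over the square root of its F statistic. It is approximate and least reliable for changes near 0. The libraries of a replicate share an adapter and sequencing, and their deviations went together (correlation 0.689 for ribo-seq, 10291 genes, and 0.709 for mRNA-seq, 12599 genes). Translational efficiency was the assay by treatment term over 8 libraries, and the leader shift the region by treatment term in ribo-seq, where both regions share the library size of the CDS. Within-replicate changes added 0.5 to each count. Wilson intervals (95%) and limits for a count of 0 (3 reads) cover counting error only. In data simulated with known changes of 1.5 on the log2 scale, 199 of 200 changed genes were recovered in mRNA level, 177 of 198 in occupancy and 170 of 198 in translational efficiency, and for leader changes of 2 on that scale 28 of 35. False calls were 11 of 210, 6 of 183, 5 of 175 and 4 of 32, in the same order. Counts were drawn with a dispersion set in advance for all genes, not fitted to these data. The recovery therefore does not give the power for the smaller changes of the tested members. With 2 replicates no exact permutation test could pass. Alternatives were other normalizations, DESeq2 1.42.0, other filters, other blocks, other transcripts and other regions. The spike-in was not analysed here.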

Additional observations from a re-analysis of the deposited data

How the results depend on the processing

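ODC1 was lower and AZIN1 higher in occupancy and translational efficiency under every alternative run, although AZIN1 was nearer to 0 over the whole transcript (0.53 in occupancy, 0.73 in translational efficiency), where its leader reads count too. Without the replicate block 0 genes were called in mRNA level (28 at an unadjusted p under 0.05), occupancy (150), translational efficiency (148) or leader shift (2), and with a replicate block shared by both assays 0 in translational efficiency (408). Over all genes, mRNA level had 725 calls, 86 with DESeq2 and 240 on CDS reads. Occupancy had 285, which became 473 with upper-quartile scaling, 71 with library totals, 54 with DESeq2, 539 without a filter and 581 with a mean of 50 counts. Translational efficiency had 204, which became 93 with DESeq2, 433 without a filter, 130 with a mean of 50 and 87 on mRNA-seq CDS reads. The leader shift had 3, which became 8 relative to the bulk of leaders, 1 with DESeq2 and 1 with the transcript of most mRNA-seq reads. The cause was not tested. Members called in mRNA level numbered 1, against 2 with upper-quartile scaling (SRM, adjusted p = 0.0441), 0 with DESeq2 and 0 without the replicate block, and in occupancy 0, against 1 (SRM) without a filter or with a mean of 50, at which 4 of the 7 remained to be tested.

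Leaving out a replicate leaves the other replicate's value with no residual degrees of freedom, so no call could be counted. Over these single-replicate values AMD1 ranged from −0.71 to 0.16 in occupancy, from −0.41 to 0.30 in translational efficiency and from −0.032 to 2.81 in leader shift, the higher value resting on 1 and 3 leader reads. SAT1 ranged from −0.22 to 0.24 and PAOX from −0.18 to 0.24 in mRNA level, PAOX from −0.035 to 0.091 in occupancy and from −0.15 to 0.15 in translational efficiency, and OAZ2 from −0.052 to 0.035 in translational efficiency. Relative to the bulk of leaders the leader shift was −1.61 for AZIN1 and −0.49 for AMD1, which changed sign. PAOX was also −0.0068 in occupancy with DESeq2, −0.0031 over the whole transcript and 0.027 in translational efficiency with mRNA-seq CDS reads. The chosen transcript of all 10 members was the same by mRNA-seq reads. With the other coding transcript, an alternative added after seeing the data, the AMD1 leader share in replicate 2 was 22.4% in control and 21.3% in arsenite. These are shares of its smaller totals of 487 and 235 reads. Depth limits SAT1, SMOX and PAOX most.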

Other observations

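The 3′ UTR is a region that the comparisons above did not use. In control replicate 2, AMD1 had 25 of 656 ribo-seq reads there (3.81%, 95% Wilson interval 2.59 to 5.57%), 90th from the highest of 8101 genes, and in arsenite 24 of 322 (7.45%, 5.06 to 10.9%). In replicate 1 it had 1 of 355 in control and 0 of 120 in arsenite, which allows a share of up to 2.5%. OAZ2 had 5 of 283 reads in its 3′ UTR in control replicate 2 (1.77%, 0.757 to 4.07%) and 6 of 118 in arsenite (5.08%, 2.35 to 10.7%). For both genes the control and arsenite intervals overlap. ODC1 had 1 of 1687 reads there in control replicate 2 (0.0593%, 0.0105 to 0.335%) and 3 of 248 in arsenite (1.21%, 0.412 to 3.5%). Over all genes the 3′ UTR share was 0.204% in control and 0.755% in arsenite for replicate 2, against 0.102% and 0.201% for replicate 1.

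ODC1 had 0 of 523 leader reads in control replicate 1, which allows a share of up to 0.574%, and 1 of 64 in arsenite. In replicate 2 it had 12 of 1687 in control (0.711%, 0.407 to 1.24%) and 8 of 248 in arsenite (3.23%, 1.64 to 6.24%). The leader reads were 12 and 8 while the CDS reads were 1674 and 237, so the share was larger with fewer reads in both regions. ODC1 was picked for its low CDS count in arsenite, which enters this share. The larger share is therefore no separate result, and its intervals cover counting error only. The leader share over all genes was also higher in arsenite in that replicate (0.80% and 1.53%).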
